A study of Mus musculus with 8 samples.

Results

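Probes whose only pair of neighbouring pyrimidines was a TT preceded by adenine made up 524 of the 122095 different DNA sequences on the arrays. The rule that chose them uses sequence alone, and it was set with earlier results of these data known. A probe qualified if its last 24 bases were the commonest last 24 bases of the design, if it held exactly 1 run of 2 or more pyrimidines over its printed strand and the complementary strand, if that run was TT, and if the base just 5′ of the TT on the strand that carries it was A. Everywhere else in such a probe purines and pyrimidines alternate on both strands. The base 3′ of the TT is therefore A or G, and the base on each side of the ATTA or ATTG core is C or T. The TT lay on the printed strand of 262 members and on the complementary strand of 262. ATTA was the core of 116 printed and 117 complement members, and ATTG of 146 printed and 145 complement members. Each member was printed once, so its value on an array is the brightness of 1 spot.

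UV-Bind irradiates a DNA microarray and then measures what binds to it, here mouse antibodies against UV lesions. The 8 arrays form 4 groups of 2: UV-treated arrays stained with an antibody against cyclobutane pyrimidine dimers (CPD antibody, dilution 1:400), arrays without UV stained with that antibody, UV-treated arrays stained with an antibody against 6-4 photoproducts (64PP antibody, dilution 1:80), and arrays without UV stained with that one. The design text gives the aim as measuring the antibody signal of short sequences. Nothing in the labels says whether the arrays of a group came from separate experiments, so p-values here measure the spread between these arrays, which may be technical. UV dose, staining conditions and the synthesis of the second strand were not given in the sources used here.

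Both lesions are covalent links between neighbouring pyrimidines of one strand. In a cyclobutane pyrimidine dimer the bases are joined by a small carbon ring, and TT is its classic site. In a 6-4 photoproduct the bases are joined by a single bond, and TT and TC are its best known sites. A probe with a lone TT on one strand thus offers a single pyrimidine pair, and the members differ in its strand, its position and the bases around it.

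All members share their last 38 of 60 bases, which hold no pyrimidine pair on either strand and are printed here to show the common context:
Shared 3′ end: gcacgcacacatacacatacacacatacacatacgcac
The first 22 bases distinguish the members. Of the members, 267 begin with tatgc and 257 with cgtatgc, and 512 belong to the array's set of all 8-mers, whose 8-mers here include the reverse complement of each one. The 4 probes below are the members whose UV effect with the CPD antibody lay nearest the median of their class, with the core in capitals. TAAT and CAAT are ATTA and ATTG read on the printed strand when the TT is on the complementary strand.
ATTA, printed strand: cgtatgcacatATTAtatgtat
ATTG, printed strand: tatgcacATTGcgtgtatgtat
ATTA, complementary strand: cgtatgcgTAATgcatatgtat
ATTG, complementary strand: tatgcaCAATgcgtgtatgtat

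These 4 probes show the main pattern in single spots. The first had adjusted intensities of 11693 and 12768 on the CPD UV arrays, against 1202 and 1046 on the CPD non-UV arrays. The second had 12431 and 10207 on the CPD UV arrays, against 1238 and 1292 without UV. The third had 4883 and 3489 with UV, against 1312 and 1069 without it. The fourth had 3833 and 3982 with UV, against 1215 and 1086 without it. Both probes with a TT on the printed strand were well above both with a TT on the complementary strand on every CPD UV array, and the 4 did not separate in that way on the non-UV arrays. The 64PP antibody gave the same probes 10251 and 12200, 10932 and 11911, 5524 and 3976, and 3871 and 4364 on its UV arrays, against 1071 to 1525 on its non-UV arrays.

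UV treatment raised the staining of the lone ATT probes with both antibodies. Their median adjusted intensity was 7599 and 6181 on the CPD UV arrays, against 1200 and 1039 on the CPD non-UV arrays. It was 6703 and 6619 on the 64PP UV arrays, against 1526 and 1240 on the 64PP non-UV arrays. The UV and non-UV arrays of an antibody did not overlap. The yardstick throughout is the set of 550 stepless probes, which hold no pyrimidine pair on either strand. Their median was 1617 and 1603 on the CPD UV arrays, against 1219 and 1048 on the CPD non-UV arrays, and 1954 and 1951 on the 64PP UV arrays, against 1497 and 1246 on the 64PP non-UV arrays.

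Relative to the stepless probes of the same array, the UV effect on the median ATT probe was 2.11 log2 units with the CPD antibody (SE 0.084, 4.31-fold, limma adjusted p = 6.38e-07) and 1.76 with the 64PP antibody (SE 0.084, 3.39-fold, adjusted p = 8.40e-07; n = 2 arrays per group). The size depended on the scale: it was 1.36 with CPD and 0.80 with 64PP after quantile normalization, and 4.04 and 3.71 after normexp background correction, all past the threshold. Quantile normalization gives UV and non-UV arrays the same distribution, so it also takes out a rise shared by most sequences. Of 990 classes of lone-run probes tested in the same way, 74.1 percent were called for the CPD antibody and 95.3 percent for the 64PP antibody. The exact two-sided permutation test over arrays gave p = 0.333 for each antibody, the smallest p that 2 arrays against 2 allow. Probe by probe, 508 of the 524 members were called higher with UV for the CPD antibody (adjusted p under 0.05), beside 70.5 percent of all 122095 sequences, and 505 for the 64PP antibody, beside 86 percent. With limma 0 members were called lower for either antibody, beside 0.473 percent of all sequences for CPD and 0.203 percent for 64PP, also at an unadjusted p under 0.05 and with a trended, robust prior, and the estimate was below 0 for 1 member with the CPD antibody and 3 with the 64PP antibody. The median effect over the members was 2.07 with the CPD antibody, where the median over all sequences was 1.11, and 1.70 with the 64PP antibody, where the median over all sequences was 1.71. When arrays were centred on the median of all sequences instead, 312 members were called higher and 8 lower for the CPD antibody, and 196 higher and 207 lower for the 64PP antibody. Measured against the array as a whole, the median lone ATT was thus high for CPD and near the middle for 64PP.

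Without UV the members could not be told from probes without a pyrimidine pair. Their median stood -0.02 and -0.01 log2 units from the stepless median on the CPD non-UV arrays, and 0.03 and -0.01 on the 64PP non-UV arrays. Of the 524 members, 524 and 523 exceeded the 95th percentile of the stepless probes on the CPD UV arrays, against 34 and 19 on the CPD non-UV arrays. The counts were 522 and 520 on the 64PP UV arrays, against 40 and 28 on the 64PP non-UV arrays.

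The strand that carries the TT accounted for most of the spread among the members after UV. Members with the TT on the printed strand had median intensities of 11479 and 10347 on the CPD UV arrays, and members with it on the complementary strand 4086 and 3636. On the 64PP UV arrays the medians were 10652 and 11054 for the printed strand and 4077 and 3986 for the complementary strand. On each of the 4 UV arrays all 262 printed-strand members were above the median of the complement members. Without UV, 143 and 131 of 262 (CPD antibody) and 139 and 154 of 262 (64PP antibody) were above that median.

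With the 3′ base matched, the UV effect was larger on the printed strand by 1.52 log2 units with the CPD antibody (SE 0.033, 2.87-fold, limma adjusted p = 1.19e-08) and by 1.41 with the 64PP antibody (SE 0.033, 2.66-fold, adjusted p = 9.08e-09). After quantile normalization the gaps were 0.70 and 0.65, still past the threshold. Of 297 matched differences tested over all lone runs, 40.4 percent were called for the CPD antibody, 54.9 percent for the 64PP antibody and 40.7 percent for the difference between them. The strand gap of the CPD antibody minus that of the 64PP antibody was 0.11 (SE 0.047, adjusted p = 0.112), and 0.15 (adjusted p = 0.0199) without 64PP UV array 2. In intensity above the stepless level, printed-strand members carried 3.99 and 4.30 times the signal of complement members on the CPD UV arrays, and 4.10 and 4.47 times on the 64PP UV arrays.

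The design allows the strands to be matched over 8 bases, because each 8-mer and its reverse complement are both members. In 256 such pairs the same 8 bases of duplex are designed with their strands exchanged, and how completely the second strand was made was not given in the sources used here. The following pair holds the first of the 4 median probes:
TT on the printed strand: cgtatgcacatATTAtatgtat
TT on the complementary strand: tatgcaTAATatgtgtatgtat
The first gave 11693 and 12768 on the CPD UV arrays, and the second 3621 and 2815. Over the 256 pairs the median gap, printed minus complement, was 1.49 and 1.51 log2 units on the CPD UV arrays, against 0.02 and -0.01 on the CPD non-UV arrays. It was 1.39 and 1.49 on the 64PP UV arrays, against 0.02 and 0.02 on the 64PP non-UV arrays. The printed-strand version was the brighter one on both CPD UV arrays in 251 pairs and the dimmer one on both in 0, and for 64PP the counts were 252 and 0. The distance of the TT from the probe's ends differs within these pairs, and the bases beyond the 8-mer can differ too. In 62 contexts the same 10 bases around the TT, read on its own strand, occurred on both strands. Their median gap was 1.48 and 1.51 on the CPD UV arrays, against 0.02 and 0.01 without UV. It was 1.33 and 1.41 on the 64PP UV arrays, against 0.00 and 0.05 without UV. The part of the distance or of the bases beyond the matched ones in the gap was not tested, nor was that of an incomplete second strand.

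The base just 3′ of the TT changed the CPD signal less than the 64PP signal. On the printed strand ATTA members had medians of 12896 and 11739 on the CPD UV arrays, and ATTG members 10755 and 9493. On the 64PP UV arrays printed-strand ATTA members had 13809 and 14227, and ATTG members 9223 and 9566. The ATTA medians were the higher ones on all 4 UV arrays. On the complementary strand ATTA members had 4099 and 3577 on the CPD UV arrays, and ATTG members 4049 and 3710, so the order of the cores was not the same on both arrays. On the 64PP UV arrays complement ATTA members had 4822 and 4521, and complement ATTG members 3731 and 3752.

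Matched by strand, the UV effect of A over G at this base was 0.14 log2 units with the CPD antibody (SE 0.025, 1.10-fold, limma adjusted p = 0.00305) and 0.47 with the 64PP antibody (SE 0.025, 1.38-fold, adjusted p = 1.36e-06). The CPD value minus the 64PP value was -0.33 (SE 0.036, adjusted p = 0.000260). With quantile normalization this difference was -0.23 and missed the threshold (adjusted p = 0.407), and with normexp it was -0.50. The CPD effect did not pass the test with quantile normalization or normexp. On the printed strand the signal above the stepless level was 1.23 and 1.28 times as high for ATTA as for ATTG with CPD, and 1.63 and 1.61 times as high with 64PP. On the complementary strand the ratios were 1.02 and 0.937 with CPD and 1.61 and 1.43 with 64PP.

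Single-base pairs show the same thing probe by probe. In 224 pairs of members the sequences are identical except at this base. The first 3 pairs in alphabetical order follow, with the core in capitals:
Pair 1, A version: cgtatgcacacaTAATatgtat
Pair 1, G version: cgtatgcacacaCAATatgtat
Pair 2, A version: cgtatgcacacATTAtatgtat
Pair 2, G version: cgtatgcacacATTGtatgtat
Pair 3, A version: cgtatgcacacgTAATatgtat
Pair 3, G version: cgtatgcacacgCAATatgtat
In pair 1, on the complementary strand, the A version had 3613 and 3127 and the G version 3270 and 3009 on the CPD UV arrays. In pair 2, on the printed strand, the A version had 19318 and 13710 and the G version 13399 and 14086, with the order turned between the arrays. In pair 3, on the complementary strand, the A version had 5487 and 5426 and the G version 5262 and 3800. On the 64PP UV arrays the A version was the brighter one on both arrays in pair 2 (14287 and 14469, against 10790 and 12778 for the G version) and pair 3 (5108 and 5630, against 4420 and 3928). In pair 1 the order was not the same on both 64PP UV arrays (4378 and 3470, against 3030 and 3710).

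Over the 224 pairs the A version was the brighter one on both UV arrays in 107 pairs and the dimmer one on both in 58 with the CPD antibody. With the 64PP antibody the counts were 178 and 11. The strands differed in this with the CPD antibody: of 112 printed-strand pairs, A was brighter on both CPD UV arrays in 75 and dimmer in 13, and of 112 complement pairs, A was brighter in 32 and dimmer in 45. On the CPD non-UV arrays the counts were 31 and 31 on the printed strand, and 13 and 41 on the complementary strand. The excess of dimmer A versions among complement pairs was thus present without UV. The UV effect of A over G in these pairs was 0.28 with the CPD antibody on the printed strand (SE 0.031, limma adjusted p = 0.000159) and -0.01 on the complementary strand (SE 0.030, adjusted p = 0.806), and the gap between the strands was 0.30 (SE 0.038, adjusted p = 0.000602). With the 64PP antibody it was 0.54 on the printed strand (adjusted p = 5.31e-07) and 0.30 on the complementary strand (adjusted p = 4.43e-05), a gap of 0.24 (SE 0.038, adjusted p = 0.00134). Of the 355 single-base contrasts tested, 11 percent were called with the CPD antibody, 14.4 percent with the 64PP antibody and 10.4 percent for the difference between them. With normexp background correction the strand gap was 0.12 (adjusted p = 0.637) for CPD and -0.06 (adjusted p = 0.769) for 64PP, and with quantile normalization -0.07 (adjusted p = 0.825) and 0.02 (adjusted p = 0.940). Pooled over the strands the CPD effect was 0.12 (adjusted p = 0.0432), and it was not past the threshold when any 1 of the 4 CPD arrays was left out, at 0.11 to 0.13 (adjusted p 0.0812 to 0.268).

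Exchanging the adenine before the TT for guanine lowered the staining of both antibodies, and nearly removed that of the 64PP antibody. On the CPD UV arrays ATT members had medians of 7599 and 6181, and the 409 lone GTT probes 3337 and 3051. On the 64PP UV arrays ATT members had 6703 and 6619 and GTT probes 2129 and 2194, close to the stepless level of 1954 and 1951. The UV effect on GTT probes over stepless probes was 1.00 with the CPD antibody (SE 0.044, limma adjusted p = 1.00e-06) and 0.15 with the 64PP antibody (SE 0.044, adjusted p = 0.0120). The 64PP value missed the threshold without array 2 of the 64PP UV arrays (0.13, adjusted p = 0.0587) or of the 64PP non-UV arrays (0.15, adjusted p = 0.0551).

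With strand and 3′ base matched, A minus G before the TT was 0.94 with the CPD antibody (SE 0.028, 1.91-fold, limma adjusted p = 4.96e-08) and 1.66 with the 64PP antibody (SE 0.028, 3.16-fold, adjusted p = 6.09e-09). After quantile normalization they were 0.53 and 0.76, and the 64PP value was 3.13 after normexp, all past the threshold. The CPD value minus the 64PP value was -0.72 (SE 0.039, adjusted p = 6.46e-06). With quantile normalization it was -0.23 and missed the threshold (adjusted p = 0.407), and it was -1.10 with dim probes left out and -1.77 with normexp. In 384 pairs of probes that differ at this base alone, the A version was brighter on both CPD UV arrays in 365 and dimmer in 3, and on both 64PP UV arrays in 375 and 0. On the printed strand the paired UV effect was 1.28 with the CPD antibody (2.43-fold, adjusted p = 2.96e-09) and 2.19 with the 64PP antibody (4.55-fold, adjusted p = 1.81e-11). On the complementary strand it was 0.70 (1.62-fold, adjusted p = 6.69e-07) and 1.00 (adjusted p = 1.90e-08). With quantile normalization the complement values were 0.45 (adjusted p = 0.155) and 0.42 (adjusted p = 0.114), past the threshold with neither antibody. Above the stepless level, printed-strand ATT members carried 3.42 ± 0.0131 times the signal of printed-strand GTT probes on the CPD UV arrays, and 22.6 ± 0.880 times on the 64PP UV arrays (SD, n = 2). The A-over-G effect at the base after the TT was 0.60 in GTT probes with the CPD antibody (SE 0.0295, adjusted p = 9.80e-07), beside 0.14 in ATT probes. The difference between these 2 values was not tested.

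The bases one step outside the core also moved the signal, by a smaller amount for CPD than for 64PP. On the printed strand CATTAC was the brightest of the 8 hexamers on the UV arrays of both antibodies, with 14194 ± 1026 for CPD and 17720 ± 693 for 64PP (SD, n = 2 arrays, 37 probes). CATTAT had 11781 ± 1196 for CPD and 13724 ± 186 for 64PP. TATTAC had 13354 ± 1411 for CPD and 13308 ± 61.4 for 64PP. With CPD the mean of TATTAC was nearer that of CATTAC than with 64PP. These SDs include the gap in brightness between the 2 arrays of a group. Whether they overlap thus does not measure the spread of a difference between hexamers, and differences between single hexamers were not tested. TATTAT was the dimmest ATTA hexamer, with 9413 ± 31.3 for CPD and 9572 ± 294 for 64PP, below the means of CATTGC and CATTGT.

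Among the printed-strand ATTG hexamers the CPD values lay between 9197 ± 764 for TATTGC and 10335 ± 951 for CATTGT. The limit on the SDs given above holds here too. The 64PP antibody gave 10226 ± 759 for CATTGC, 9991 ± 207 for CATTGT, 8159 ± 149 for TATTGT and 7989 ± 773 for TATTGC. With it the pair with C at the 5′ side was above the pair with T there. Above the stepless level CATTAC had 1.64 and 1.68 times the signal of TATTGC on the CPD UV arrays, and 2.78 and 2.47 times on the 64PP UV arrays. On the complementary strand the CPD values ran only between 3630 ± 308 for TATTAT and 4330 ± 414 for CATTAC, while the 64PP order was led by CATTAC (5888 ± 225) and ended with TATTGC (3437 ± 3.83) and TATTGT (3428 ± 82.7).

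The outer bases were then compared with core and strand matched, but not the start of the TT. T instead of C just 5′ of the core changed the UV effect by -0.08 with the CPD antibody (SE 0.026, limma adjusted p = 0.0443) and by -0.32 with the 64PP antibody (SE 0.026, adjusted p = 1.90e-05). T instead of C just 3′ of the core changed it by -0.09 with CPD (SE 0.027, adjusted p = 0.0415) and by -0.25 with 64PP (SE 0.027, adjusted p = 9.94e-05). The antibodies differed at both bases, by 0.24 (SE 0.037, adjusted p = 0.00155) and 0.17 (SE 0.039, adjusted p = 0.0105), CPD minus 64PP. These differences missed the threshold with quantile normalization (0.18 and 0.11, adjusted p 0.427 and 0.817) and with normexp (0.39 and 0.24, adjusted p 0.0725 and 0.309), and the 3′ one also with means in place of medians (adjusted p = 0.101). The CPD values are at the edge of the threshold and missed it without either CPD non-UV array (-0.08 and -0.08 at the 5′ side, adjusted p 0.162 and 0.188; -0.09 and -0.08 at the 3′ side, adjusted p 0.121 and 0.200) or without CPD UV array 1 (-0.05 and -0.07, adjusted p 0.257 and 0.211). The 5′ value also missed it without either 64PP non-UV array (adjusted p = 0.0581 in limma), and neither antibody's effects at the outer bases passed with quantile normalization.

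The contrasts and hexamer values above do not separate the outer base from the start of the TT. The shared first bases fix C at the 5′ outer base of every printed-strand member with the earliest start. Members with an early TT had lower UV effects with both antibodies, as given below. Single-base pairs share their start. Of 160 pairs that differ at the 5′ outer base alone, the T version was brighter on both CPD UV arrays in 29 and dimmer in 91. It was brighter on both 64PP UV arrays in 3 and dimmer in 119. Of 192 pairs at the 3′ outer base the counts were 51 and 96 with CPD, and 20 and 130 with 64PP. The paired UV effects at the 5′ outer base were -0.20 with CPD (SE 0.029, adjusted p = 0.00136) and -0.40 with 64PP (SE 0.029, adjusted p = 3.17e-06). At the 3′ outer base they were -0.14 with CPD (SE 0.038, adjusted p = 0.0461) and -0.29 with 64PP (SE 0.038, adjusted p = 0.000326). With quantile normalization none of these 4 paired values passed the test (-0.13, -0.32, -0.09 and -0.15 in the order given, limma adjusted p 0.114 to 0.822). With normexp the 5′ value of 64PP did, and the others did not (-0.29, -0.18 and -0.38, adjusted p 0.162 to 0.538). The CPD value at the 3′ side ran from -0.17 to -0.11 and missed the threshold when any 1 of the 4 CPD arrays was left out (adjusted p 0.0832 to 0.295).

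Bases further out made no difference that passed the test when both strands were pooled. The members allow 8 more positions to be exchanged singly, 3 to 6 bases from the nearer base of the TT on each side, with 32 to 160 pairs each. Over these 8 positions the effect of A or T over G or C ran between -0.04 and 0.06 with the CPD antibody, with a smallest adjusted p of 0.390, and between -0.07 and 0.05 with the 64PP antibody, with a smallest adjusted p of 0.195. With the strands set against each other, printed minus complement, the CPD antibody gave a called gap at 2 of these positions. It was 0.22 at 6 bases on the 5′ side (SE 0.040, limma adjusted p = 0.00535), from 0.10 on the printed strand and -0.12 on the complementary strand with 16 pairs each. It was 0.16 at 3 bases on the 3′ side (SE 0.044, limma adjusted p = 0.0461), from 0.05 and -0.11 with 80 pairs each. The 64PP gaps there were 0.08 (adjusted p = 0.265) and 0.00 (adjusted p = 0.973). Both CPD gaps missed the threshold on the unadjusted intensities, with quantile normalization, with normexp and without CPD UV array 1 (0.19 and 0.09), and the 3′ one also without either CPD non-UV array or either 64PP UV array. In simulated arrays with few changed sequences and independent noise, limma recovered 62 percent of CPD changes of 1 log2 unit in single sequences. In the real data 70.5 percent of all sequences were called higher for CPD, so that share need not hold here. How small an effect on a single probe could be detected is thus not known, and the tests on single-base pairs were not simulated.

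Position along the probe moved the signal far less than the strand did. The TT began at position 7, 9, 11 or 13 from the 5′ end in all but 2 of the printed-strand members, and at 8, 10, 12 or 14 in all but 3 of the complement members. On the CPD UV arrays printed-strand ATTG members had 8950 ± 201 at start 7, 9694 ± 373 at start 9, 10238 ± 957 at start 11 and 11163 ± 912 at start 13 (SD, n = 2). Complement ATTA members had 3341 ± 337 at start 8, 3622 ± 323 at start 10, 4025 ± 292 at start 12 and 4187 ± 369 at start 14. In these series the mean was higher at each later start, with gaps between neighbouring starts often no larger than the SDs. The SDs again include the gap in brightness between the 2 arrays, so they do not measure the spread of the gaps between starts. The other 6 series did not rise throughout. Complement ATTG members had 3496, 3916, 4193 and 4083 at starts 8 to 14 on the CPD UV arrays. On the 64PP UV arrays printed-strand ATTG members had 9107, 9565, 9452 and 9274 at starts 7 to 13, and complement ATTA members 3783, 4585, 5458 and 4607 at starts 8 to 14. Printed-strand ATTA members peaked at start 11 with the CPD antibody (13468 ± 1303) and had 11933 ± 818 at start 13.

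With core and strand matched, members whose TT began before position 9 had a UV effect lower by 0.20 with the CPD antibody (estimate -0.20, SE 0.026, limma adjusted p = 0.000501) and by 0.17 with the 64PP antibody (estimate -0.17, SE 0.026, adjusted p = 0.000632) than those with a later TT. Neither value passed the test with quantile normalization or normexp. The early probes carry other bases beyond the core than the late ones, since the starts go with the fixed bases around the 8-mer. Where the same 10 bases around the TT occurred at starts 9 and 7 of the printed strand, in 16 contexts, the later one was higher by a median of 0.14 and 0.19 log2 units on the CPD UV arrays and by 0.18 and 0.15 on the 64PP UV arrays. At starts 11 and 9, in 21 contexts, the medians were 0.09 and 0.11 on the CPD UV arrays, against -0.04 and -0.01 without UV. With 64PP they were 0.13 and 0.17 with UV, against -0.03 and 0.06 without it. At starts 13 and 11, in 9 contexts, the medians were 0.13 and 0.23 on the CPD UV arrays, against 0.01 and 0.03 on the CPD non-UV arrays, and 0.02 and 0.12 on the 64PP UV arrays, against 0.00 and 0.13 on the 64PP non-UV arrays. The 64PP values with UV thus lay within the range of those without it. For starts 10 and 8 of the complementary strand, in 20 contexts, the medians were 0.02 and 0.06 on the CPD UV arrays and 0.02 and 0.09 on the 64PP UV arrays. For starts 12 and 10, in 10 contexts, they were 0.00 and 0.05 with CPD, and -0.02 and -0.19 with 64PP, so the later start was not the brighter one throughout.

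These features accounted for most of the differences among members after UV and for almost none without it. Strand alone accounted for 78.8 and 80.7 percent of the variance of log2 intensity over the 524 members on the CPD UV arrays, and for 67.1 and 75.5 percent on the 64PP UV arrays. Adding the 3′ base gave 79.4 and 81.2 percent with CPD and 74.7 and 81.5 percent with 64PP. With both outer bases as well the shares were 80.1 and 81.9 percent with CPD and 79.5 and 86.5 percent with 64PP, and with the start position 82.9 and 84.0 percent, and 82.0 and 88.4 percent. The whole set accounted for at most 3.71 percent on a non-UV array. Members kept their order between replicate UV arrays, with Spearman's rho of 0.909 for CPD and 0.929 for 64PP over all 524, 0.784 and 0.858 among printed-strand members and 0.645 and 0.719 among complement members. Without UV rho was 0.020 for CPD and 0.016 for 64PP. These are correlations across probes that share most of their sequence, not across samples.

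The members with the largest UV effects carried the TT on the printed strand, and most were ATTA probes, with 1 ATTG probe among the 5 of each antibody. The 5 probes with the largest CPD effect and the further 4 that complete the 5 with the largest 64PP effect are shown in that order, since they show which flanks go with the highest staining:
CPD 1 and 64PP 2: cgtatgcacATTAtatatgtat
CPD 2: cgtatgcATTAcacatatgtat
CPD 3: tatgcacacATTAcacgcgcgc
CPD 4: cgtatgcacATTAcgtatgtat
CPD 5: cgtatgcATTGcgtatatgtat
64PP 1: tatgcacacATTAcgtatgtat
64PP 3: cgtatgcATTAcgcatatgtat
64PP 4: cgtatgcgcATTAtgtatgtat
64PP 5: tatgcATTGtgtgtgtatgtat
The probe at CPD rank 2 had 21849 and 20534 on the CPD UV arrays, against 1260 and 977 on the CPD non-UV arrays, an effect of 3.75 (SE 0.12, 13.4-fold, adjusted p = 1.23e-06). The probe at 64PP rank 1 had 20618 and 27816 on the 64PP UV arrays, against 1413 and 1025 on the 64PP non-UV arrays, an effect of 3.80 (SE 0.16, 13.9-fold, adjusted p = 1.10e-06). All 9 have C at the 5′ outer base, as do 180 of the 262 printed-strand members, and the 9 were picked as extremes.

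Several of these extremes were uneven between the 2 UV arrays. The probe at CPD rank 1 had 34954 on CPD UV array 1 and 18435 on array 2, and 46607 on 64PP UV array 1 and 22213 on array 2, so it was about as uneven with either antibody. On CPD UV array 2 it lay between CPD ranks 2 and 3 (20534 and 16793). On 64PP UV array 2 it was below 64PP ranks 1, 3 and 4 (27816, 23126 and 23481). The probe at CPD rank 5 had 11453 on array 1 and 28847 on array 2 of the CPD UV arrays. The probe at 64PP rank 5 had 64896 on 64PP UV array 1, a saturated spot, and 7007 on array 2. Over all members 4 spots in 3 members were saturated.

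Some of the smallest UV effects rest on 1 bright spot. The members with the 3 smallest effects per antibody are shown with the core in capitals:
Lowest with both antibodies: tatgcatatgCAATgtatgtat
CPD, next: cgtatgcgtATTAtgtatgtat
CPD, then: cgtatgCAATgcatgtatgtat
64PP, next: cgtatgCAATatgtgtatgtat
64PP, then: tatgcaTAATgcacgtatgtat
The first had 4738 and 4336 on the CPD UV arrays, against 1069 and 64818 on the CPD non-UV arrays, and 4224 and 4874 on the 64PP UV arrays, against 1576 and 63994 on the 64PP non-UV arrays. Its estimate of -1.39 for CPD (SE 2.30, adjusted p = 0.616) thus comes from a bright spot on non-UV array 2 of both antibodies. The probe cgtatgcgtATTAtgtatgtat likewise had 11406 on CPD non-UV array 2 and 6766 on 64PP non-UV array 2, against 1136 and 1583 on the other non-UV array of each. The probe cgtatgCAATgcatgtatgtat was dim without any such spot, with 2500 and 2277 on the CPD UV arrays, against 1340 and 1308 on the CPD non-UV arrays (effect 0.34, SE 0.13, adjusted p = 0.0505). Of the 16 members not called for CPD, 14 carried the TT on the complementary strand, and so did 18 of the 19 not called for 64PP.

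The antibodies differed on the ATTG members in most settings tried and not detectably on the ATTA members. The UV effect on all ATT probes was larger with the CPD antibody by 0.35 (SE 0.12, limma adjusted p = 0.0333), but this call was lost when any 1 of the 2 CPD non-UV, 2 64PP UV or 2 64PP non-UV arrays was left out (0.33 to 0.37, adjusted p 0.0671 to 0.0908), and the value was 0.21 without CPD UV array 1 and 0.49 without CPD UV array 2. Of the lone-run classes 77.2 percent were called for such a difference. For ATTG the effect was larger with CPD by 0.44 on the printed strand (SE 0.079, adjusted p = 0.00203) and by 0.34 on the complementary strand (SE 0.061, adjusted p = 0.00195). Without stepless subtraction neither ATTG difference passed the test (adjusted p = 0.0738 printed and 0.176 complement, limma), and the complement one also missed it with quantile normalization (0.51, adjusted p = 0.0654) and normexp (0.41, adjusted p = 0.0675). For ATTA the difference was 0.13 on the printed strand (SE 0.064, adjusted p = 0.107) and 0.00 on the complementary strand (SE 0.093, adjusted p = 0.978). The value for printed-strand ATTA was 0.19 (adjusted p = 0.0103) without CPD UV array 2. The antibodies were used at different dilutions, and on the linear scale the differences were 1130 intensity units for printed-strand ATTG (SE 571, adjusted p = 0.122) and -1315 for printed-strand ATTA (SE 537, adjusted p = 0.0706).

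Probe by probe, 86 members had a larger UV effect with the CPD antibody, beside 10.6 percent of all sequences, and 2 with the 64PP antibody, beside 36.9 percent. These calls come from the fit that does not pair arrays of the same number. Of the 86, 47 were printed-strand ATTG members and 33 complement ATTG members, with 5 printed-strand and 1 complement ATTA members. The 3 with the largest difference toward each antibody and the other member called toward 64PP were:
Toward CPD 1: tatgcacgtATTGtgtatgtat
Toward CPD 2: cgtatgcgcacgCAATatgtat
Toward CPD 3: tatgcatgtatATTGtatgtat
Toward 64PP 1: tatgcATTGtgtgtgtatgtat
Toward 64PP 2: tatgcatgTAATgcgtatgtat
Toward 64PP 3: cgtatgcATTAcgcatatgtat
Called toward 64PP: tatgcatgcacgcatgTAATgc
The probe tatgcatgtatATTGtatgtat had 13209 and 13555 on the CPD UV arrays and 7162 and 7983 on the 64PP UV arrays, a difference of 1.24 (SE 0.13, adjusted p = 0.000531). The probe cgtatgcATTAcgcatatgtat had 13663 and 13748 on the CPD UV arrays and 22925 and 23126 on the 64PP UV arrays, a difference of -0.55 (SE 0.16, adjusted p = 0.0301). The probe tatgcatgcacgcatgTAATgc had 4823 and 4381 on the CPD UV arrays and 8244 and 9073 on the 64PP UV arrays, a difference of -0.52 (SE 0.15, adjusted p = 0.0247). The first of these holds T on both sides of ATTG, and the others, the members called toward 64PP, hold C on both sides of ATTA. The difference of cgtatgcgcacgCAATatgtat rests on 1 spot of 16031, beside 4170 on the other CPD UV array, and that of tatgcATTGtgtgtgtatgtat on the saturated spot described above.

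Lone ATC and ATTT runs gave other levels. The 542 lone ATC probes had medians of 1785 and 1750 on the CPD UV arrays, against 1222 and 1039 on the CPD non-UV arrays, and 4615 and 4558 on the 64PP UV arrays, against 1523 and 1249 on the 64PP non-UV arrays. Their UV effect over stepless probes was 0.14 with the CPD antibody (SE 0.028, limma adjusted p = 0.00351) and 1.22 with the 64PP antibody (SE 0.028, adjusted p = 3.33e-08). The 199 lone ATTT probes had 6038 and 5247 on the CPD UV arrays and 4324 and 4099 on the 64PP UV arrays. Their UV effect was 1.82 with the CPD antibody and 1.10 with the 64PP antibody (SE 0.063 each, adjusted p = 3.35e-07 and 2.20e-06). Above the stepless level printed-strand ATT members had 0.964 and 0.940 times the CPD signal of printed-strand ATTT probes and 1.70 and 1.62 times their 64PP signal. These comparisons between runs are values side by side, with no test of the difference.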

How the data were processed

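Each deposited table gives, per the file headers, the fluorescence intensity of every spot of 1 array on a linear scale. The authors' adjusted intensity, used here, equals the unadjusted one times an array constant divided by a local median, as checked on the values. Scanner and software were not given in the sources used here. Log2 intensities, with repeat spots averaged, were set against the median of the 550 stepless probes of the array. Class values are medians over at least 10 probes. limma 3.58.1 (lmFit, eBayes, R 4.3.3) was fitted to all 8 arrays, with a UV effect for each antibody and their difference. P-values were adjusted by Benjamini-Hochberg over each whole table, and an adjusted p under 0.05 counted as a call. The probe test was tested on simulated data. The number of arrays, 2 per group, limits the precision.

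Members, classes and contrasts were chosen with earlier results of these data known. Named probes are, per antibody, the 5 highest and 3 lowest UV effects, the 3 largest differences each way, the member nearest each class median for CPD and the first 3 single-base pairs. Members called toward 64PP and the strand partner were named after their values were seen. Members with a saturated spot are named only where they are among the extremes.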

Additional observations from a re-analysis of the deposited data

Results flagged for a closer look

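The UV effect differed between the antibodies, by the interaction term of the fit over all 8 arrays, in these results, each given as CPD minus 64PP. All lone ATT probes over stepless probes differed by 0.35 (SE 0.12, limma adjusted p = 0.0333), with effects of 2.11 for CPD and 1.76 for 64PP. ATTG differed by 0.44 on the printed strand (2.67 for CPD and 2.23 for 64PP) and by 0.34 on the complementary strand (1.27 for CPD and 0.93 for 64PP). The effect of A over G after the TT differed by -0.33, and that of A over G before the TT by -0.72; with quantile normalization both were -0.23 and missed the threshold (adjusted p = 0.407). The effect of T over C at the outer bases differed by 0.24 at the 5′ side and by 0.17 at the 3′ side. The start of the TT was not matched in this effect. The dilutions of the antibodies differ, and their part in these differences was not tested. Groups of 2 arrays are too small for a test of single arrays that stand apart.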

How the results depend on the processing

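Of the values under alternatives that answer a comparison, 224 kept direction and side of the threshold, 23 missed the threshold and 4 counts moved. With 1 array left out 122 kept both and 14 missed the threshold. Centring on the array median called 312 members higher for CPD and 196 for 64PP, and quantile normalization 270 and 180. Quantile normalization gives all arrays the same distribution, although 70.5 percent of all sequences were called higher with UV for CPD and 86 percent for 64PP. How much of its smaller values comes from that was not tested. The antibody difference of all ATT probes missed the threshold without stepless subtraction (0.34), with normexp (0.33) and on linear intensity (605), and ran from 0.21 to 0.49 with 1 array left out. The CPD effect of the 3′ base missed it with quantile normalization (0.14) and normexp (0.19). The position effect did so with quantile normalization (-0.0263 for CPD, -0.0518 for 64PP) and normexp (-0.20 and -0.25). The CPD effect of the 5′ outer base missed it with quantile normalization (-0.0835), normexp (-0.11), dim probes left out (-0.0699), means (-0.11), one antibody alone (-0.0809) or a trended, robust prior (-0.0809), and ran from -0.11 to -0.0538 with 1 array left out. That of the 3′ outer base missed it with quantile normalization (-0.0111), normexp (-0.0730), dim probes left out (-0.10), means (-0.11) or a trended prior (-0.0866), and ran from -0.11 to -0.0663. With quantile normalization the 64PP effects at the outer bases were -0.26 and -0.12 and missed the threshold too. These values change sign: the antibody difference in the strand gap on linear intensity (-107); that of printed-strand ATTA (-1315 on linear intensity); that of complement ATTA without stepless subtraction (-0.0026), with normexp (-0.12), with an offset of 100 (-0.0056) and on linear intensity (-476), with -0.0886 to 0.0949 when 1 array was left out; the strand gap of the 3′ base with quantile normalization for CPD (-0.0699) and with normexp for 64PP (-0.0596); and the 3′ base on the complementary strand for CPD with quantile normalization (0.24) and normexp (0.21), with -0.0286 to 0.00014 when 1 array was left out. The 64PP strand gap at 3 bases on the 3′ side, near 0, does so with quantile normalization (-0.18), with normexp (-0.14), with dim probes left out (-0.0059) and from -0.0210 to 0.0265 with 1 array left out, and that at 6 bases on the 5′ side on unadjusted intensities (-0.0079). The cause was not tested. The contrast of A/T-rich with A/T-poor members could not be computed, with 18 A/T-poor members.

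Arrays are numbered 1 and 2 in each group, and the labels do not say that a number marks anything shared, so the arrays were not treated as paired. Deviations from the group mean correlated between antibodies over all sequences (Pearson's r = 0.71 with UV and 0.77 without) and not between UV and non-UV arrays. With the replicate number as a block 512 members were called for CPD and 506 for 64PP, the antibody difference of all ATT probes was 0.35 (adjusted p = 0.0289), and the CPD effect at the 3′ outer base missed the threshold (-0.0866, adjusted p = 0.0535), as did its paired value (-0.14, adjusted p = 0.0570). With the block taken within UV status, chosen after seeing the data, the antibody difference was 0.35 (adjusted p = 0.0309). That block is given for this difference alone. The SEs and calls of the other differences between antibodies, those of single probes among them, do not take the shared deviations into account. The strand matching by 8-mers or 10-base contexts was also added after seeing the data and kept the direction.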
